A study of Mus musculus with 2 samples.

Results

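Long gaps are stretches of an autosome of at least 300 kb in which neither kidney library had a peak of DNase I cutting. They were chosen by the deposited peak positions alone: the peaks of both replicates were joined into 318652 sites on the 19 autosomes, and the 318633 intervals between neighbouring sites were measured. Of these intervals, 371 were at least 300 kb long, and 11 of them (10.2 Mb) were left out because more than 10% of their bases are N in the assembly. The remaining 360 gaps made up 0.113% of the intervals and covered 206 Mb, which was 8.36% of the 2463 Mb of autosomes. Because the peaks chose the gaps, the absence of peaks in them and the number and length of gaps are descriptions, and none was tested.

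The data are 2 DNase-seq libraries from kidney of B6NCrl mice at postnatal age 0 days, a single untreated group with no other tissue, age or genotype. The labels call the libraries biological replicates 1 and 2 and record no sex. They list a separate piece of tissue for each but a single donor for the pair, so differences between the libraries may be technical only. DNase I cuts DNA that is not wrapped in nucleosomes, and the deposited lists held 262093 and 253163 autosomal peaks in replicates 1 and 2. The sequencing depth is unknown, since the lists hold no read counts. All 18 marker genes of kidney cells that were looked up, among them Six2, Wt1, Nphs1, Lrp2 and Umod, had a site of either library within 1 kb of a transcription start site (TSS), and none lay inside a gap. Over all autosomal coding genes, 75.6% had such a site.

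Open chromatin in a tissue marks promoters, enhancers and insulators that are in use or ready for use, and mammalian genomes also hold long tracts with little of it. Such tracts are usually AT-rich, poor in CpG and rich in repeats, and they often hold either no gene or clusters of duplicated genes that serve a single organ. The largest such clusters in mouse are the odorant receptor genes, of which each sensory neuron of the nose transcribes a single allele, and the vomeronasal receptor genes, which detect pheromones. Neither family has a known general role in kidney, although a few odorant receptors have been described there.

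The following sequences show what bounds and fills the gaps. Coordinates are those of mouse assembly mm10 (GRCm38), and sequences run 5′ to 3′. The first set holds the sites at both ends of the longest gap, chr7:19956771-23968160, read from the plus strand with every CpG in capitals. The left site (chr7:19956621-19956770) had a deposited signal of 59.4 in replicate 1 and 71.3 in replicate 2, and all of its 36-base stretches (36-mers) occur once in the genome. The right site (chr7:23968161-23968330) had signals of 8.41 and 8.61, 58.8% of its 36-mers occur once, and it holds a match to the consensus of the insulator protein CTCF. Neither site lies within 1 kb of an annotated TSS.
Left edge of the longest gap: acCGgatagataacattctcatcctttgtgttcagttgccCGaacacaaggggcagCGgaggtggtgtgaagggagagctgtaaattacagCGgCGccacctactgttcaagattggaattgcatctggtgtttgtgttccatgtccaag
Right edge of the longest gap: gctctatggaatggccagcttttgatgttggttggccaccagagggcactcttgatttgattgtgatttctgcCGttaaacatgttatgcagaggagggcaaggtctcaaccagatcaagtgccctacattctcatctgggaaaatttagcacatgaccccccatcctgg

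The second set holds RefSeq promoters (GRCm38.p6, 250 bases before the start and 50 after it, on the strand of the gene, CpG in capitals) of the first gene in genome order inside a gap from each receptor family. Olfr16 (chr1:172956518-172956817, plus strand) is an odorant receptor gene, Vmn1r22 (chr6:57900941-57901240, minus strand) a type 1 vomeronasal receptor gene and Vmn2r3 (chr3:64287368-64287667, minus strand) a type 2 vomeronasal receptor gene. All 3 windows lie inside the longer GENCODE gene bodies, so they need not be where transcription starts. In the Vmn2r3 window, a reading frame without a stop codon opens before the RefSeq start and runs to the end. The 3 windows hold 2, 1 and 2 CpG. Entpd4b (chr14:69555151-69555450, plus strand), a copy of a Golgi nucleotide phosphatase gene, is shown as a contrast chosen after its values were seen: its promoter holds 33 CpG, and none of its 36-mers occurs once in the genome.
Promoter of Olfr16: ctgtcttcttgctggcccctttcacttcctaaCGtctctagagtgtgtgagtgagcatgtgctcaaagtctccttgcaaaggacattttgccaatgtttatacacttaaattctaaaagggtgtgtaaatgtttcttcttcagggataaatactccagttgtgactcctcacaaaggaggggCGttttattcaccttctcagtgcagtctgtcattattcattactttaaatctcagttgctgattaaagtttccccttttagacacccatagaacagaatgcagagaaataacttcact
Promoter of Vmn1r22: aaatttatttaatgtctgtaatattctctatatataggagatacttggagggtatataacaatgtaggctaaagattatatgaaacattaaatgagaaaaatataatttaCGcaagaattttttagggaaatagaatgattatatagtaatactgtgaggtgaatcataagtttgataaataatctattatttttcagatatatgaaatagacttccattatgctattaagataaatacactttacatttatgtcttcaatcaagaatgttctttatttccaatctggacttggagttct
Promoter of Vmn2r3: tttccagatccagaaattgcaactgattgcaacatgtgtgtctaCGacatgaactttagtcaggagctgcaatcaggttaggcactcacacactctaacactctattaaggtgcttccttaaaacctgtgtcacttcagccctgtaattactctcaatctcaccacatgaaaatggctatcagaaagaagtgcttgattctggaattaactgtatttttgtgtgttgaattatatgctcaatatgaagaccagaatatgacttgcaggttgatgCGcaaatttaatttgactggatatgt
Promoter of Entpd4b: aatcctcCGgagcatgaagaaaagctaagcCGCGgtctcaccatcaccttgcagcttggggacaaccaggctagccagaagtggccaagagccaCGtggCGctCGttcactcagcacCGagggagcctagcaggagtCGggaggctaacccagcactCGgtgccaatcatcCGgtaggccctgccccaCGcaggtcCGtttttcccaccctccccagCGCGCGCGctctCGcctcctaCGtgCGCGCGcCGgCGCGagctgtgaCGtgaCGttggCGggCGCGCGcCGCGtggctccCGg

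The third set holds 2 sites that each part a pair of gaps, also chosen after their values were seen. The site at chr7:10495341-10495510 lies 32 bp from the TSS of Zik1, which encodes a zinc finger protein, and had signals of 103 in replicate 1 and 93.3 in replicate 2. A gap of 3194 kb ends on its left and a gap of 1122 kb starts on its right. The site at chr2:88356401-88356570 lies in an odorant receptor cluster, between gaps of 1149 and 1058 kb, and had signals of 26.7 and 35.7. Capitals mark every CpG in the Zik1 site and the CTCF consensus match in the chromosome 2 site.
Site at the TSS of Zik1: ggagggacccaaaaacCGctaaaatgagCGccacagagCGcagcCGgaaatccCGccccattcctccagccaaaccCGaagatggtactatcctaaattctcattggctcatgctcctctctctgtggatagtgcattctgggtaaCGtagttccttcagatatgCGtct
Site between odorant receptor gaps: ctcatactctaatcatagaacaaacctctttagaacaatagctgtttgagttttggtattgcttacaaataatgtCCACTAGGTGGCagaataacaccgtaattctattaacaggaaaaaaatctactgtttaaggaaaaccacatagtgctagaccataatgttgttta

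The gaps formed the far tail of a distribution whose middle was short. The median interval between neighbouring sites was 1.49 kb and the 99th percentile 81.2 kb. The gaps ran from 300.05 to 4011 kb, with a median of 433 kb and quartiles of 346 and 620 kb. Of the 360, 212 were 300 to 500 kb long (78.2 Mb in all), 120 were 500 to 1000 kb (80.8 Mb), 21 were 1000 to 2000 kb (27.1 Mb) and 7 were longer (19.9 Mb). Just inside the minimum length stood gaps of 300.05, 300.67 and 301.41 kb, and just outside it intervals of 299.85, 299.93 and 299.95 kb. The distribution had no break there: 26 intervals measured 290 to 300 kb and 22 measured 300 to 310 kb.

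**Figure D1:**
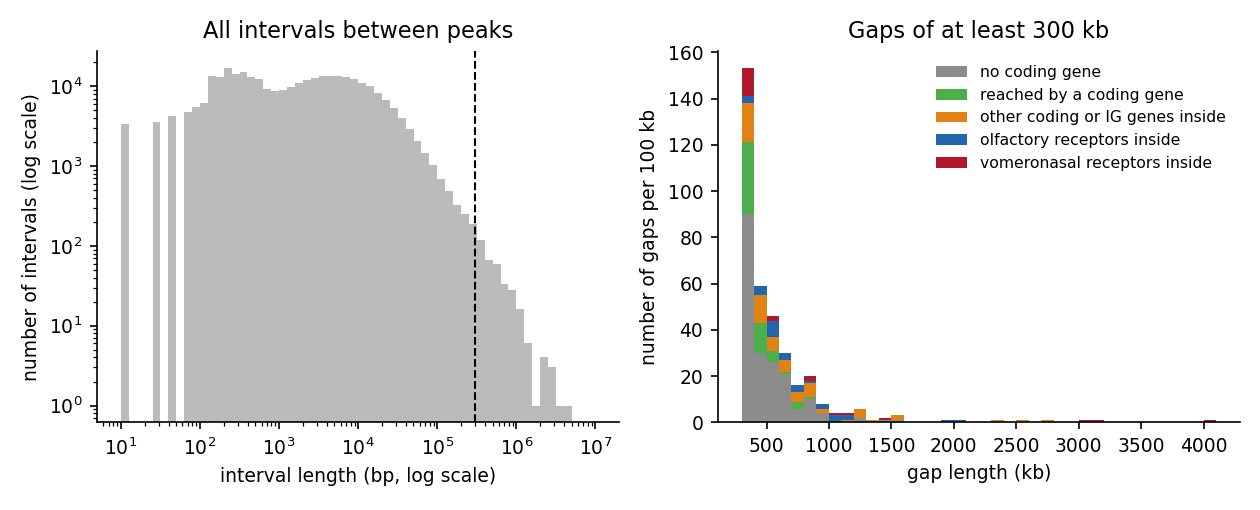
Left, number of intervals between neighbouring sites (log scale) by length in bp (log scale), with a dashed line at 300 kb. Right, number of gaps per 100 kb of length, coloured by what lies inside (receptor genes include pseudogenes), with 212 of 360 gaps below 500 kb and 7 above 2000 kb.

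Each library alone gave more and longer gaps, since it had fewer peaks to part them. Replicate 1 alone gave 404 gaps (236 Mb) and replicate 2 alone 455 gaps (264 Mb), or 429.5 ± 36.1 gaps and 250.1 ± 20.3 Mb (SD, n = 2). Replicate 1 alone gave 139 gaps with the same ends as a gap of both replicates joined, replicate 2 alone gave 103, and 7 gaps had the same ends in all 3 lists.

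The replicate that was not used to make a list of gaps had few peaks in them, and those were weak. The 404 gaps of replicate 1 held 192 peaks of replicate 2, or 0.815 per Mb against 114 per Mb outside, and 255 of the gaps (63.1%) held none. The 455 gaps of replicate 2 held 498 peaks of replicate 1, or 1.88 per Mb against 119, and 195 of the gaps (42.9%) held none. The mean density was 1.35 ± 0.756 peaks per Mb inside and 116 ± 3.82 outside (SD, n = 2), a difference far larger than either spread. Held-out peaks inside the gaps had median signals of 10.5 (replicate 2) and 10.8 (replicate 1), against 16.9 and 17.2 outside, and the strongest of them reached 21.2 and 47.3. In the gaps of which at least 80% of 36-mers occur once, held-out densities were 0.977 and 2.67 per Mb. No p-value can be given with 1 group of 2 libraries that share a donor record.

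Chromosome 7 held the largest share of gap sequence. Its 33 gaps covered 29.2 Mb, or 20.1% of its length (21.1% and 22.2% in replicates 1 and 2 alone). Next came chromosome 1 with 11.96% (44 gaps), chromosome 14 with 11.6% (30 gaps), chromosome 12 with 10.8% (21 gaps) and chromosome 17 with 10.1% (12 gaps). The lowest shares were 2.05% on chromosome 18 (4 gaps) and 2.77% on chromosome 11 (7 gaps). In single replicates, chromosome 7 stood at 21.7% ± 0.818 and chromosome 14, the next highest, at 15.4% ± 0.791 (SD, n = 2), so chromosome 7 stood apart from the others by more than the spread. Chromosomes 1, 12 and 17 (13.5% ± 0.728, 11.9% ± 0.369 and 12.2% ± 1.26) were close together, and the order of 12 and 17 differed between replicates. They were not set apart from the rest. In replicate 2 alone, chromosomes 3, 4 and 5 (12.33%, 11.99% and 11.88%) stood above chromosome 12 (11.68%). The chromosomes differed in what filled their gaps. On chromosome 7, 12 gaps were vomeronasal and 6 olfactory, and 5 of the 33 held and met no coding gene, whereas on chromosome 1 no coding gene lay in or reached into 31 of the 44 gaps. Gene density did not follow the gap share: chromosome 7 has 13.9 coding genes per Mb and chromosome 11, near the bottom, 13.4.

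**Figure D2:**
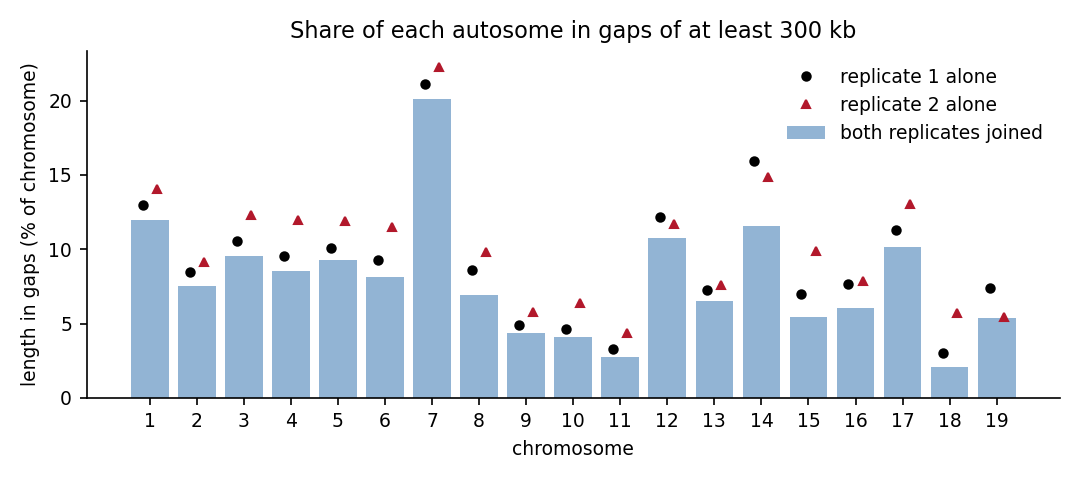
Share of each autosome in gaps (percent of its length, bars for both replicates joined, circles and triangles for replicates 1 and 2 alone). Chromosome 7 stands highest at 20.1% and chromosome 18 lowest at 2.05%.

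What lay inside the gaps fell into 5 classes. The most numerous was gene-poor: 191 gaps (94.0 Mb, 45.6% of gap length) neither held nor met a coding gene, and 33 of all gaps held no annotated gene of any kind. Another 54 gaps (22.7 Mb, 11.0%) were reached by a coding gene that did not lie wholly inside. Olfactory receptor genes or pseudogenes lay in 30 gaps (22.8 Mb, 11.0%) and vomeronasal genes or pseudogenes in 22 of the rest (20.9 Mb, 10.1%). Of the gaps then left, other coding genes or immunoglobulin segments lay in 63 (45.7 Mb, 22.2%, called other coding gaps here). A single pseudogene was enough to place a gap in a receptor class, and coding Olfr genes lay in 28 of the 30 olfactory gaps. An immunoglobulin gap of 2046 kb therefore counts as olfactory. The median length was 638 kb for olfactory gaps, 562 kb for other coding gaps, 413 kb for those without a coding gene, 396 kb for vomeronasal gaps and 371 kb for those that a coding gene reached. Of all gaps, 112 held a whole coding gene and 48 held at least 10.

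Of the 10 longest gaps, 9 held coding genes, most of them in rows of members of the same family. The longest, chr7:19956771-23968160 (4011 kb), held 102 coding genes, of which 63 were Vmn1r genes, and started with Ceacam20, Nlrp9b, Vmn1r91, Gm16442 and Vmn1r93. The next, chr7:7300891-10495340 (3194 kb), held 26, of which 23 were Vmn2r genes such as Vmn2r30, Vmn2r31, Vmn2r32 and Vmn2r33 beside Gm45783. The gap chr17:17910391-20925780 (3015 kb) held 34 coding genes: 9 Vmn1r, 21 Vmn2r, including Vmn2r124, Vmn2r91, Vmn2r92 and Vmn2r94, and formyl peptide receptor genes led by Fpr-rs4.
In chr7:31208411-33977180 (2769 kb), 26 genes of secreted androgen-binding proteins stood in a row from Scgb2b2, Scgb1b2, Scgb2b3, Scgb1b3 and Scgb2b7 on. In chr5:93328331-95864480 (2536 kb) there were 27 coding genes, most known by clone names only (Gm16427, C87414, Gm7792, Gm16429, BC061212). The gap chr4:111961591-114296480 (2335 kb) held 10 genes, all of the Skint family of skin and thymus (Skint7, Skint1, Skint4, Skint3 and Skint9 first). The gap chr12:113981911-116028220 (2046 kb) held no coding gene but 89 immunoglobulin heavy chain segments, from which B cells assemble antibody genes. It is classed as olfactory through 1 Olfr pseudogene.
The last 3 were chr17:37869991-39843320 (1973 kb, 23 coding genes, of which 13 were odorant receptor genes from Olfr127, Olfr128, Olfr761, Olfr129 and Olfr130 on), chr6:129720751-131290540 (1570 kb, 14 genes from Klri2, Gm156, Klra17, Gm17631 and Klra5 on) and chr4:121241611-122808260 (1567 kb, the 4 genes Gm12888, Gm12886, Gm12887 and 9530002B09Rik). The longest gap with neither a coding gene nor an immunoglobulin segment was chr14:81445391-83002580 (1557 kb), between Olfm4 and Pcdh17, and the next was chr1:108499091-109982140 (1483 kb), between Serpinb8 and Cdh7. Both were named after their values were seen.

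Coding genes were not scarce in the gaps, but they were unlike those elsewhere. Of 20807 autosomal protein-coding genes in GENCODE M21, 1428 (6.86%) lay wholly inside a gap, close to the 8.36% of the autosomes that gaps cover, and 1488 (7.15%) had a TSS inside. Coding genes stood at 6.93 per Mb in gaps and 8.59 per Mb outside. Pseudogenes were denser inside, at 9.82 per Mb against 4.24, with 2023 of 11594 (17.4%) wholly inside. Long noncoding RNA genes were rare, with 212 of 9426 (2.25%), and 92 of 2054 miRNA genes (4.48%) and 120 of 494 immunoglobulin and T cell receptor segments (24.3%) lay inside. Exons made up 3.33% of gap sequence and 4.96% of the autosomes. Olfactory and vomeronasal receptor genes were 856 of the 1428, or 59.9%. Of the other 19350 coding genes, 572 (2.96%) lay inside, and 250 of those were predicted genes with Gm names.

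Most odorant receptor genes lay in gaps. Of 1128 coding Olfr genes, 641 (56.8%) lay wholly inside 28 gaps, led in genome order by Olfr16 and Olfr1408, against 6.86% of all coding genes. In replicates 1 and 2 alone the share was 58.2% and 60.7% (SD 1.82). Olfr pseudogenes had a similar share, 167 of 271 (61.6%). The share varied by cluster. Chromosome 2 had 248 of its 294 Olfr genes in 8 gaps and chromosome 16 had 33 of 36 in 2 gaps, while chromosome 7 had 129 of 244, chromosome 9 had 69 of 132, chromosome 10 had 46 of 70 and chromosome 11 had 19 of 82. None of the 28 on chromosome 6, the 24 on chromosome 4 or the 15 on chromosome 13 lay in a gap. The run of adjoining gaps with the most Olfr genes was chr2:87207671-89972720, where 3 gaps in a row held 127 coding genes, 123 of them Olfr. Odorant receptor genes outside the gaps were seldom accessible either: 28 of 487 had a site within 1 kb of a TSS, and 437 of 487 lay whole within a shorter interval between sites, with a median length of 96.4 kb.

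Vomeronasal receptor genes were also often inside gaps. Their share depended on the minimum length and on how gaps in repeated or unassembled sequence were treated. Of 208 Vmn1r genes, 129 (62.0%) lay inside 12 gaps, the first being Vmn1r22 and Vmn1r23, with 69.2% in replicate 1 alone and 72.1% in replicate 2 alone. Of 121 Vmn2r genes, 86 (71.1%) lay inside 13 gaps, the first being Vmn2r3 and Vmn2r4, with 76.9% and 74.4% in single replicates. Both types together made 215 of 329 (65.3%; 72.0% and 72.9%), above the Olfr share. That order turned when gaps were limited to at least 50% unique 36-mers (116 of 329, against 634 of 1128 Olfr genes). It also turned with at most 1% N (127, against 641) and with a minimum length of 400 kb (158, against 619). The same held for gaps with at least 300 kb of unique 36-mer starts (161, against 592). Chromosome 7 held 95 of its 103 Vmn1r genes and 44 of its 51 Vmn2r genes in gaps, and chromosome 17 held 27 of its 32 Vmn2r genes, whereas chromosome 6 had 18 of 51 Vmn1r genes and chromosome 13 had 7 of 36. Of the 114 coding vomeronasal genes outside gaps, 3 had a site at a TSS, and 98 lay whole within a shorter interval (median 192 kb).

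The other families of sensing receptors were divided. Bitter taste receptor genes lay inside in 18 of 35 cases (51.4% in both single replicates too), in 3 gaps of chromosome 6 with Tas2r139 and Tas2r130 first. Formyl peptide receptor genes, which serve innate immunity and some of which the vomeronasal organ uses, lay inside in 4 of 7 cases (Fpr-rs4 and Fpr-rs7 first). None of the 15 trace amine receptor genes, which nasal neurons also use, lay in a gap. Among lists chosen after the genes inside were seen, 13 of 20 Mas-related receptor genes of itch and mast cells and 9 of 15 genes of exocrine gland secreted peptides lay in gaps. For the latter, the single replicates gave 86.7% and 93.3%, since each library had sites there that the other lacked.

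Genes of secreted proteins and of the placenta came next. Of 34 secretoglobin and androgen-binding protein genes, 26 (76.5%) lay in the gap chr7:31208411-33977180, and all 35 of their pseudogenes lay there too. In that gap, 31.5% of 36-mers were unique. Defensin genes, which encode antimicrobial peptides, numbered 23 of 64, with Defb33 and Defa21 first. All lay in a gap of 938 kb on chromosome 8 with 25.2% unique 36-mers. Prolactin family genes of the placenta numbered 8 of 25 (32.0%, Prl2c2 and Prl2c5 first), in 2 gaps with 32.7% and 68.6% unique 36-mers. The share of 32.0% rested on replicate 1: it was 32.0% with that replicate alone and 72.0% with replicate 2 alone. Milk and saliva protein genes behaved the opposite way, with 3 of 9 inside (Smr3a and Smr2 first), 88.9% in replicate 1 alone and 33.3% in replicate 2 alone. Serpin genes of clades a and b numbered 6 of 49 (12.2%, Serpinb9c and Serpinb9d first), against 6.86% of all coding genes. The list of placental cathepsin genes was chosen after the genes were seen. All 8 lay inside, in 2 gaps with 65.5% and 64.5% unique 36-mers (Ctsj, Ctsq, Ctsr, Cts6, Cts8, Cts7, Ctsm and Cts3). None of 22 major urinary protein genes and none of 26 kallikrein genes did.

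Immune and skin families split by member. Of 11 Skint genes, 10 lay in 1 gap (Skint7 and Skint1 first) and Skint8 lay outside it. Of 26 killer cell lectin-like receptor genes, 12 lay in 1 gap of chromosome 6 (Klri2 and Klra17 first), and 11 of those were the Klra genes, which encode the Ly49 receptors of natural killer cells. Of 255 immunoglobulin segments, 120 (47.1%) lay in 3 gaps, with Igkv2-112 and Igkv14-111 first, and with 55.7% and 58.0% in single replicates. No T cell receptor segment of 212 did, although T cell receptor genes rearrange in the same manner. No gene of 17 in the interferon alpha family and none of 36 late cornified envelope and Sprr genes lay inside, and 4 of 57 keratin-associated protein genes of hair did (Krtap6-3 and Krtap20-2 first), a share of 7.02%, near the 6.86% of all coding genes.

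Enzyme families of liver metabolism were inside in part, beside 6.86% of all coding genes. Of 77 cytochrome P450 genes of families 2, 3 and 4, 27 (35.1%) lay in 3 gaps: 8 Cyp3a genes on chromosome 5 (Cyp3a57 and Cyp3a16 first), 5 Cyp2a and Cyp2b genes on chromosome 7 and 14 Cyp2c genes on chromosome 19. Sulfotransferase genes numbered 6 of 21, all of them Sult2a genes in a gap of 806 kb (Sult2a5 and Sult2a2 first), and none of the 21 UDP glucuronosyltransferase genes lay inside. Other coding genes inside included Sis, the sucrase-isomaltase of the gut, and Tlr11, a toll-like receptor that senses bacterial flagellin and parasite profilin (both named after their positions were seen).

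Families of germ line and early embryo were inside in part or in full. Pramel genes lay inside in 7 of 11 cases (Pramel7 and Pramel6 first). Speer genes of spermatogenesis did in 1 of 10 (Speer1), where the share of all coding genes was 6.86%. Lists chosen after the genes were seen gave all 5 Zscan4 genes of the early embryo, all 5 Tdpoz genes, all 5 Usp17-like genes, 6 of 7 Obox homeobox genes and 9 of 17 Nlrp genes, several of which are active in oocytes. Of 13 pregnancy-specific glycoprotein genes of the placenta, 4 lay inside (61.5% in replicate 1 alone, 30.8% in replicate 2 alone), in a gap with 56.3% unique 36-mers. In contrast, zinc finger genes with Zfp symbols lay inside in 6 of 385 cases (Zfp352 and Zfp936 first), although many form arrays of duplicates, and 345 of the 385 (89.6%) had a site at a TSS, against 75.6% of all coding genes. Unnamed coding genes lay inside in 250 of 1226 cases (20.4%) for Gm symbols (Gm19965 and Gm28363 first). For Riken clones it was 21 of 539 (3.90%, B020011L13Rik and 4930430A15Rik first), below the share of all coding genes. Named microRNA genes lay inside in 21 of 1084 cases (1.94%, Mir6342 and Mir6350 first), against 4.48% of all miRNA genes.

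**Figure D3:**
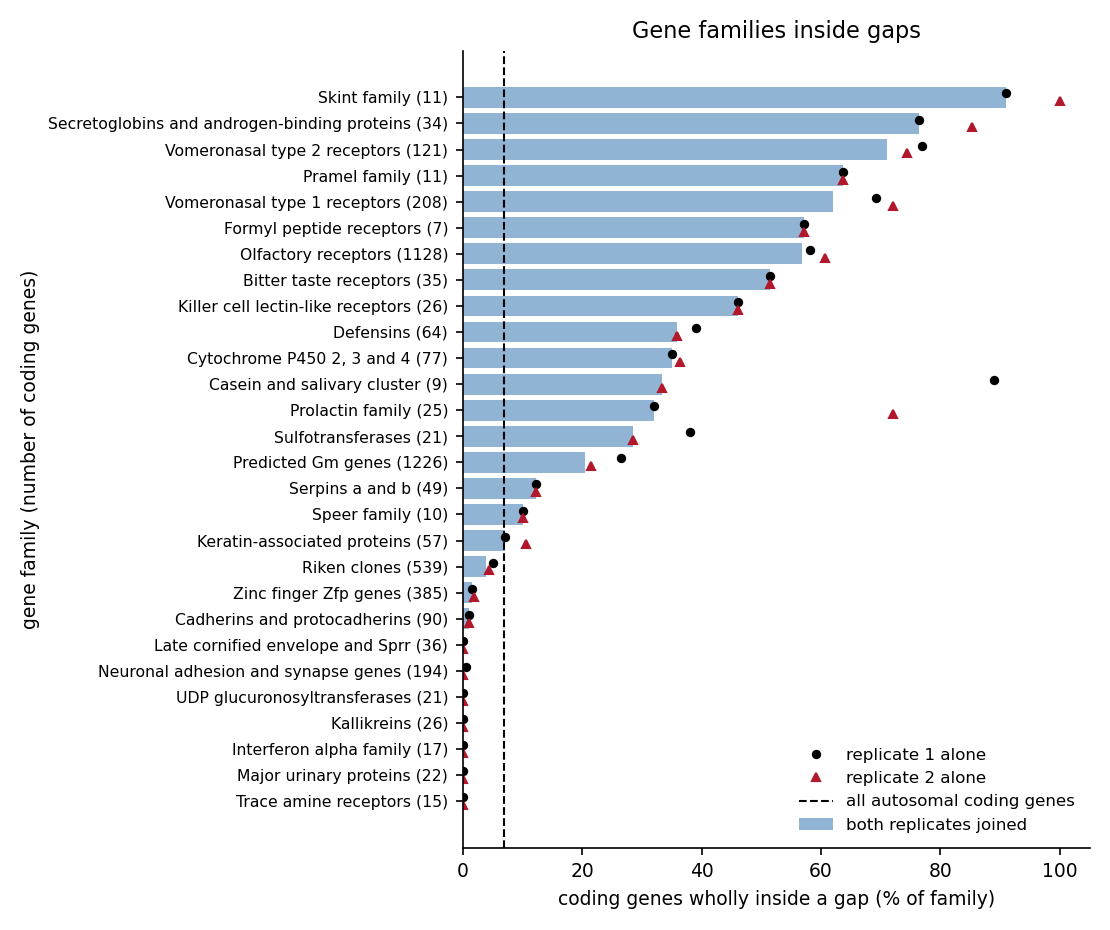
Share of each family's coding genes wholly inside a gap (percent of the family, number of genes in brackets, bars for both replicates joined, circles and triangles for replicates 1 and 2 alone). The dashed line is the 6.86% of all autosomal coding genes, and the Skint, secretoglobin and type 2 vomeronasal receptor families stand farthest above it.

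Some long genes of the nervous system were crossed by gaps, and few were contained in them. None of 194 genes in the list of neuronal adhesion and synapse genes and 1 of 90 cadherin and protocadherin genes (Cdh19) lay wholly inside. Of all coding genes, 93 (0.447%) reached into a gap without lying inside it, among them 17 of the 194 in the neuronal list (8.76%) and 4 of the 90 in the cadherin list (4.44%), so most genes of both lists did not. Those 93 genes had a median length of 82.8 kb against 17.6 kb for all coding genes, and longer genes have more sequence that a gap can meet. Of the 93, 76 (81.7%) had a site within 1 kb of a TSS, near the 75.6% of all coding genes. Each of the 93 runs past the end of a gap and so meets the site there. Their share with a site at a TSS is therefore partly set by how they were chosen. In all, 23 gaps lay entirely within 1 coding gene, in 21 genes.

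Among genes not wholly inside a gap, the 10 with the most sequence in gaps all had an accessible promoter in both libraries. This is a description, since each such gene meets the site at a gap end, and genes wholly inside were left out. Lingo2, a leucine-rich repeat protein of neurons, had 979 of its 1245 kb in gaps and a promoter signal of 32.3 in replicate 1 and 25.9 in replicate 2. Nrg3, which encodes a neuregulin, had 734 of 1104 kb in gaps and signals of 18.3 and 22.5. Sgcz, a sarcoglycan of muscle membranes, had 706 of 1139 kb and signals of 64.5 and 73.3, the highest of the 10. Gaps, which hold no site by definition, covered most of these 3 genes, while the promoter was a site.
Lrp1b, of the LDL receptor family, had 666 of 2058 kb in gaps and signals of 14.98 and 12.2. Malrd1 had 609 of 729 kb and signals of 11.7 and 11.9, the lowest of the 10. Fstl5, a follistatin-like gene, had 579 of 636 kb and signals of 53.8 and 72.3. The remaining genes had shorter stretches in gaps and promoter signals in the same range.
Cntnap5c, a contactin-associated gene, had 497 of 641 kb in gaps and signals of 34.7 and 42.0. Nkain2, which interacts with the sodium pump, had 464 of 1201 kb and signals of 27.1 and 25.3. Lrrc4c, a netrin-G ligand, had 429 of 1314 kb and signals of 58.7 and 63.1, and Grik2, a kainate receptor subunit, had 412 of 694 kb and signals of 22.3 and 31.3. In all 10, the values of both libraries lay within the range of 11.7 to 73.3.

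Gap sequence was richer in AT and in repeats than the rest of the autosomes. Pooled over all gaps, GC content was 38.2% against 42.3% outside, soft-masked repeats made up 48.4% against 32.1%, and CpG stood at 5.31 per kb against 8.81. By region, the median gap had 37.4% GC, against 42.1% in 6958 tiles of 300 kb outside gaps, and 95.6% of gaps lay below that median tile. The median repeat share was 46.2% against 30.3%, and 0.833% of gaps lay below that median tile. The single replicates gave median GC contents of 37.50% (both) and repeat shares of 46.0% and 45.8%. Lower GC was shared by all classes: the medians were 37.0% for gaps reached by a coding gene, 37.1% for those without a coding gene, 38.0% for olfactory, 39.0% for vomeronasal and 39.5% for other coding gaps. Repeat shares were also lowest in gaps reached by a coding gene (40.9%) and in those without a coding gene (45.8%), with 50.5% in other coding, 51.2% in olfactory and 51.9% in vomeronasal gaps. Neighbouring tiles are not independent, and no test was run.

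Read length may bear on these gaps: the reads were 36 nt long, and the deposited track headers speak of unique reads. Of the 36-mers that start in gaps, 67.9% occur once in the genome, against 87.8% outside, and the medians were 79.9% in gaps and 90.5% in outside tiles. In 39 gaps (36.04 Mb), fewer than 50% of the 36-mers were unique, as in 0.891% of outside tiles. Of these 39, 31 were other coding or vomeronasal gaps, 6 neither held nor met a coding gene and 1 was olfactory. The remaining gap, chr7:59272071-60004240 (38.2%), was reached by a coding gene. Several of the longest gaps had low uniqueness, and 5 of the 10 longest were below 50%. The share was 14.3% in chr7:19956771-23968160, 16.4% in chr7:7300891-10495340 and 10.8% in chr5:93328331-95864480. It was 77.3% in chr17:17910391-20925780 and 73.5% in the Skint gap. The lowest value was 0.269%, in chr4:41847911-42704840 (857 kb, with the chemokine genes Ccl21b and Ccl27b and the interleukin receptor gene Il11ra2), followed by 1.52% in chr14:69249431-69692480 (443 kb, with Synb, Entpd4 and Entpd4b). Whether any missing signal in these gaps comes from reads without a unique place was not tested.

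Many gaps lay in mostly unique sequence. In 179 gaps (85.6 Mb), at least 80% of 36-mers were unique, and 129 of these neither held nor met a coding gene, 39 were reached by a coding gene, 9 were other coding gaps, 2 were olfactory and none vomeronasal. In these 179, the median GC content was 36.8% and the median repeat share 43.5%, against 42.6% and 29.4% in the 6211 outside tiles with at least 80% unique 36-mers, whose median uniqueness was higher (91.2% against 83.2%). Median uniqueness by class was 84.1% in gaps reached by a coding gene, 81.2% in those without a coding gene, 73.0% in olfactory, 63.5% in vomeronasal and 60.6% in other coding gaps. With the gap length counted as unique 36-mer starts only, 214 of the 360 gaps still held at least 300 kb. Olfactory gaps had more unique sequence than vomeronasal ones, and 1 of 30 fell below 50%. Of the 641 Olfr genes inside, 634 lay in gaps of at least 50% uniqueness, against 116 of the 215 vomeronasal genes.

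**Figure D4:**
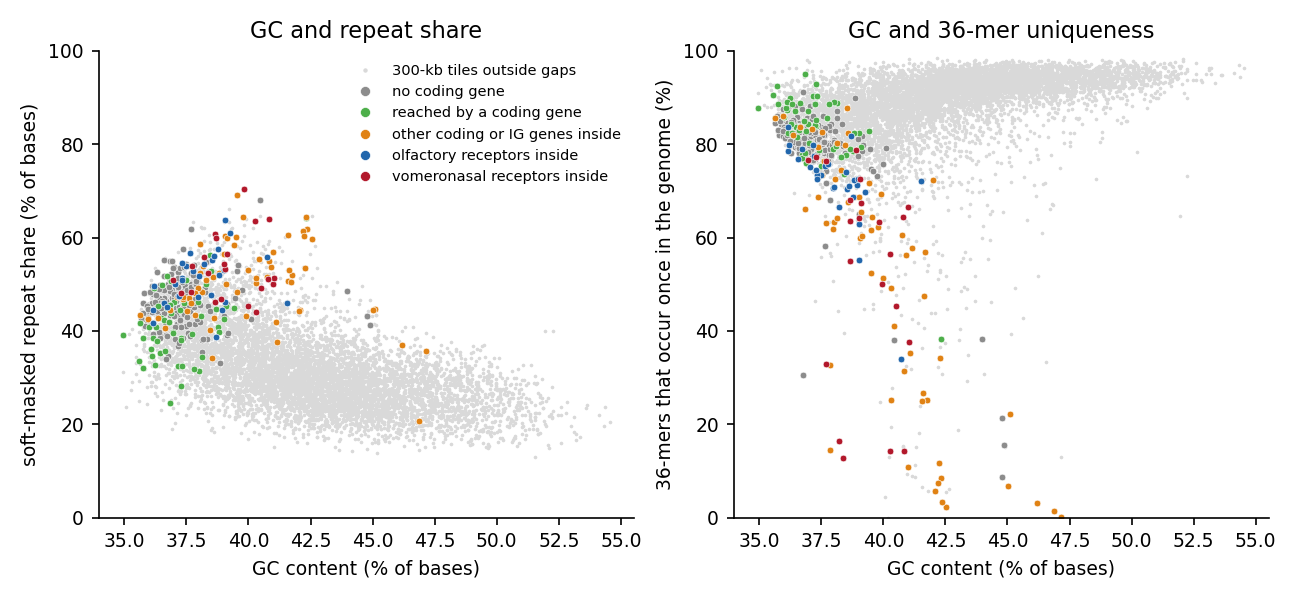
Soft-masked repeat share (left, percent of bases) and share of 36-mers that occur once (right, percent) against GC content (percent) for the 360 gaps, coloured by class, and for 6958 tiles of 300 kb outside gaps (grey). Gaps gather at low GC and high repeat share, and 39 of them lie below 50% uniqueness.

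The sites at the ends of gaps were a little weaker than other sites and more often matched the CTCF consensus. The 360 gaps had 672 edge sites, since 48 sites parted a pair of gaps. The rule used the positions of these sites but not their signal. Their median signal was 14.8 ± 0.144 (14.7 and 14.9 in the replicates, SD, n = 2), and that of the other autosomal sites was 17.0 ± 0.177 (17.2 and 16.9), a difference larger than the spread. Away from a TSS the medians were 14.1 ± 0.177 and 15.8 ± 0.210, a smaller difference but also larger than the spread. Edge sites were found in both replicates in 58.0% of cases, against 61.1%, and lay within 1 kb of a TSS in 13.5%, against 21.4%. A CTCF consensus match, searched by name on both strands, was found in 39 edge sites (5.80%) and in 2.19% of the others. Made from single replicates, edges matched in 5.47% and 5.90% of cases (5.68% ± 0.309) and other peaks in 2.53% and 2.66% (2.59% ± 0.0901). Among sites away from a TSS the shares were 6.02% and 2.46%, so the difference was present there as well. Edge sites also had a lower GC content (median 42.4% against 48.8%). A match describes the letters and not binding.

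Some edge sites stood nearly alone. In 42 runs, 90 gaps followed each other with a single site between them. The longest run, chr7:7300891-12010440, joined 3 gaps over 4.71 Mb with 11 Vmn1r and 23 Vmn2r genes, and the Zik1 site printed above is 1 of the sites that part it. Of the 48 sites between 2 gaps, 5 lay within 1 kb of a TSS and 4 matched the CTCF consensus. Those at a TSS were at Zik1, at Oprk1, the kappa opioid receptor gene (43.2 and 43.1), at Folh1, a folate hydrolase gene expressed in kidney (12.7 and 16.5), and at the pseudogenes Gm8357 (29.4 and 28.1) and Olfr1069-ps1 (24.5 and 27.7). Both libraries had a peak at each of these 5. The surroundings of the gaps were sparse too: sites stood at 30.9 per Mb within 50 kb of a gap, 31.3 per Mb from 50 to 100 kb, 36.6 from 100 to 200 kb and 47.8 from 200 to 500 kb, against 129 per Mb over the autosomes. Neighbouring gaps were not taken out of these flanks. Part of the sparseness therefore follows from the rule, as at the 48 sites between 2 gaps.

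Promoters inside the gaps were poor in CpG. In RefSeq windows of 300 bases, the 1348 promoters of coding genes placed inside gaps held a median of 1 CpG, and the 18737 outside held 15. Some of the 1348 windows ran past a gap end or belonged to genes not wholly inside. At least 10 CpG were found in 33 promoters inside (2.45%) and in 61.9% of those outside. A TATAAA match on either strand was present in 41.8% of promoters inside, 10.6% of those outside and 12.7% of all. The families differed among themselves. Where a RefSeq start lies within a gene body, as in the receptor genes printed above, its window need not be a promoter. TATAAA was found in 50.4% of 540 olfactory, 48.9% of 139 Vmn1r and 13.4% of 82 Vmn2r promoters inside, and none of these had 10 or more CpG. Odorant receptor promoters outside the gaps were also poor in CpG, with a median of 1, and 28.6% held TATAAA, so the low CpG number was not confined to those inside.

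The few CpG-rich promoters inside gaps lay mostly in sequence with few unique 36-mers. Of the 33, 7 had at least 50% unique 36-mers, and their median uniqueness was 20.4%, against 100% for CpG-rich promoters outside and 91.7% for the CpG-poor promoters inside. The Entpd4b promoter printed above is an example, and Ccl21b has 45 CpG and no unique 36-mer. Not all of the 7 lay clear of a site. The Gm33933 window overlaps the site chr14:6605141-6605310, and the Gm10406 window runs past the end of its gap. Brinp3, with 100% unique 36-mers, has a site at a TSS and does not lie wholly inside a gap. In the promoters of odorant receptor genes inside gaps, median uniqueness was 100%, whereas it was 16.6% for Vmn1r and 71.1% for Vmn2r promoters. These values belong to the reference and were not measured in the libraries.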

How the data were processed

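The authors deposited 1 narrowPeak list per replicate, each called on its own from an alignment of 36-nt reads to the minimal mm10 assembly, per the file headers. Aligner, peak caller, threshold and depth were not given in the sources used here. Each peak's signal is the authors' deposited value, whose scaling is not given, and was used only to describe and rank. The deposited −log10 p was not used. Overlapping peaks were joined into sites. Genes came from GENCODE M21, families from symbols, promoters from RefSeq, and repeats from lower-case reference bases (masking tool not given). A 36-mer was unique when it occurred once on either strand of the assembled chromosomes.

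Members and lists were chosen with earlier results of these data known. The text names the 10 longest gaps (first 5 coding genes), the first 2 inside genes per family, the 10 genes reaching farthest into gaps, the top 5 chromosomes, and the sequences of the longest gap's edges and first receptor promoters. Other names were chosen after values were seen. With 1 group, no test was run. Steps were tested on simulated data (Python 3.11.15, numpy 2.4.6, pandas 2.3.3, numba 0.67.0, matplotlib 3.10.9). Tried alternatives were length minimum, N limit, stronger or shared peaks, single replicates, uniqueness and TSS position.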

Additional observations from a re-analysis of the deposited data

How the results depend on the processing

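No paired analysis was possible because the study holds 1 group. The 360 gaps (206 Mb) became 752 (301 Mb) with a minimum of 200 kb, 207 (154 Mb) with 400 kb and 630 (405 Mb) with peaks in the upper 50% of signal. Shared peaks alone gave 310 Mb, gaps of at least 50% unique 36-mers 170 Mb, and gaps with at least 300 kb of unique 36-mer starts, an alternative chosen after seeing the data, 214 gaps (147 Mb). Leaving out a replicate gave 236 to 264 Mb. Olfactory counts stayed within 1.5 times of 641 throughout (592 to 743). The vomeronasal count of 215 became 158 with a minimum of 400 kb, 127 with at most 1% N and 116 with at least 50% unique 36-mers. It was 161 in the gaps with at least 300 kb of unique 36-mer starts. The median GC content of 37.4% was 37.54% with 200 kb, 37.46% with 400 kb, 37.38% with at most 1% N, 37.80% with strong peaks, 37.56% with shared peaks, 37.27% at 50% uniqueness and 37.17% with 300 kb of unique starts, and 37.50% without either replicate. The median repeat share of 46.2% was 45.7%, 47.8%, 44.2%, 45.0%, 46.03% and 46.97% with 200 kb, 400 kb, strong peaks, shared peaks, 50% uniqueness and 300 kb of unique starts, and 45.8% to 46.0% without a replicate. These medians moved by more than the very small replicate SD, but each stayed on the same side of the medians outside gaps. Depth is unknown, so an accessible site too weak to be called cannot be told apart from none.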
